A study of Mus musculus with 6 samples.

Results

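The enzymes described here make nucleotides anew or recover them from free bases and nucleosides. They are 35 genes in 4 groups: 11 of de novo purine synthesis, 5 of de novo pyrimidine synthesis, 10 of deoxynucleotide supply and 9 of salvage. A gene was counted as measured when a probe's transcript identifier led to its symbol, which gave 49 of the array's 39429 gene probes. Of those probes, 46 were well above background on every array of at least 1 group, and 34 of the 35 genes could be tested among 19670 genes in all. The gene that could not was Rrm2b.

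The arrays set 3 samples of somatic cells from the mouse fetal gonad against 3 samples of embryonic stem cells, in a study that, by its title, is about energy metabolism in primordial germ cells. The somatic group (soma) came from the genital ridges of male embryos at E13.5, with the background given as MCH x C57BL6/J and the transgene as Oct5<delta>PE-GFP. The stem cell group (ESC) was the male line VR15, which carries a Vasa::RFP transgene, and all its samples come from that 1 line. No other treatment is given for either group. Each sample gave 100 ng of total RNA to its own 1-colour array. The samples of a group are called biological replicates, but how many embryos or cultures stand behind each is not given, and p-values measure only the spread between these samples.

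De novo synthesis builds the purine ring step by step on phosphoribosyl pyrophosphate (PRPP), and the pyrimidine ring before PRPP is joined to it. Ribonucleotide reductase then turns ribonucleotides into the deoxynucleotides needed for DNA, while salvage kinases, phosphorylases and phosphoribosyltransferases reuse bases and nucleosides at lower cost. Embryonic stem cells divide fast and draw heavily on these routes.

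Values are log2 processed signals less the array's 75th percentile over gene probes, so 1 unit is a 2-fold step, and differences are ESC minus soma with the SE of a limma fit (n = 3 per group). A gene was called at a Benjamini-Hochberg adjusted p under 0.05 over all genes tested. The array's 75th percentile was a signal of 1245 to 1388 on the soma arrays and 959 to 1016 on the ESC arrays, and 56.0% to 63.2% of gene probes were well above background. Soma 1 and 2 shared a slide, soma 3 lay on the slide of the ESC arrays, and each scan held 1 group alone, which means that group and scan cannot be told apart. All 8 pluripotency markers were higher in ESC, with a median difference of 6.56, and all 8 gonad somatic markers were lower there, with a median of -7.16. Of the gonad somatic markers, 3 were not well above background on any ESC array. Markers of other cell types also differed, and the 6 red cell markers and 6 macrophage markers tested were all lower in ESC. The summed linear signal of the red cell markers, relative to the 75th percentile, was 814 to 862 on soma arrays and 0.17 to 0.20 on ESC arrays, and that of the macrophage markers was 6.30 to 6.74 and 0.759 to 0.837. On the ESC arrays 4 of 6 markers of each of these lists were not well above background. The summed germ cell markers stood at 3.89 to 7.39 on soma arrays and 12.6 to 13.4 on ESC arrays, but single markers differed in direction. Of the 7 tested, 3 were higher in ESC, 2 lower and 2 not called, with a median difference of 0.13. Endothelial markers were mixed: of 6 tested, 2 were higher in ESC, 3 lower and 1 not called. Their sum was 4.73 to 6.63 on soma arrays and 4.99 to 5.39 on ESC arrays. In such bulk RNA, fewer cells of a type and less RNA per cell cannot be told apart, and the part of other cells' RNA in the results was not tested.

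Nucleotide enzyme genes were mostly higher in the stem cells. Of the 34 tested, 31 (91.2%) were higher in ESC, against 46.6% of all genes, and 2 (5.88%) were lower, against 38.3%. Of all genes, 84.9% were called in either direction. At least 2-fold higher values were found for 22 genes (64.7%), against 24.2% of all genes. The median difference over the enzymes was 1.30, beside 0.14 over all genes. Among scalings, the count of enzymes higher ran from 26 with spike-in RNA to 32 with the array median, and it was 25 when soma 3 alone was set against the ESC arrays of its slide. The values of soma and ESC did not overlap for 33 of the 34, beside 87.2% of all genes. All 34 were well above background on all 6 arrays, so none entered through 1 group alone. Replicates lay close together, with a median SD of 0.0584 among soma arrays and 0.0677 among ESC arrays. Only Upp1 and Dctd had an SD above 0.2 among soma arrays.

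**Figure D1:**
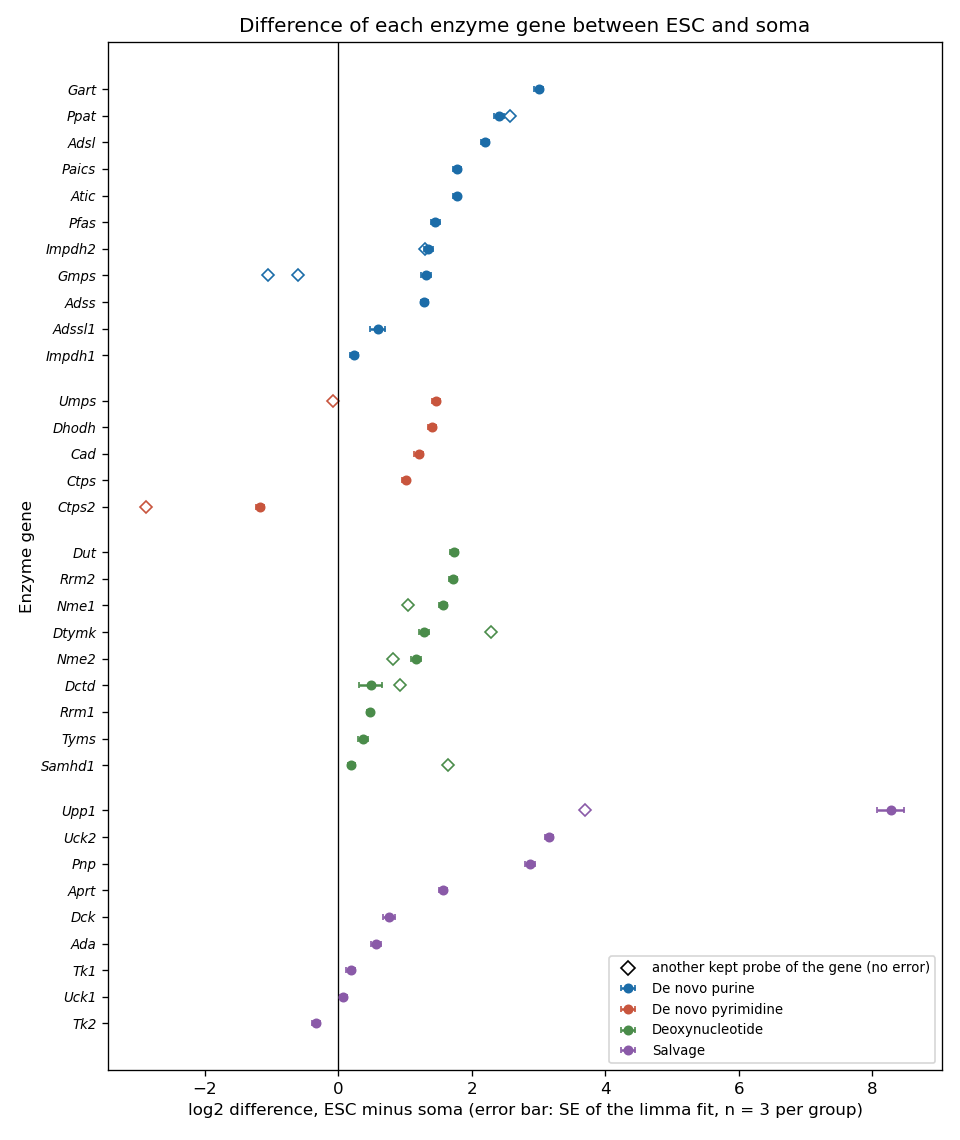
Log2 difference, ESC minus soma, for the 34 enzyme genes tested, grouped by pathway, with error bars for the SE of the limma fit (n = 3 per group) and open diamonds for other probes of the same gene. Most points lie right of 0, Upp1 lies farthest right at 8.28, and Ctps2 and Tk2 are the genes called lower, although Tk2 is not called when arrays are scaled to their median.

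The enzymes of de novo purine synthesis were higher in ESC by the brightest probe of each gene. By that probe all 11 passed, 9 of them at 2-fold or more, beside 46.6% and 24.2% of all genes. The median difference was 1.46. Other probes of Gmps went the other way, and 10 passed with the mean of a gene's probes, with quantile normalization or with spike-in scaling, and 9 within the shared slide. The largest differences were those of Gart and Ppat. Gart encodes an enzyme with 3 activities in the early steps of the pathway, and it stood at -0.09, -0.11 and -0.19 in soma and 2.96, 2.78 and 2.88 in ESC, in the order of replicates 1 to 3, a difference of 3.00 ± 0.06 (8.01-fold, adjusted p 3.82e-07). Ppat, the amidotransferase that commits PRPP to purines, stood at -0.89, -0.86 and -0.89 in soma and 1.64, 1.39 and 1.55 in ESC, a difference of 2.41 ± 0.07 (5.31-fold, adjusted p 1.09e-06). For both genes every ESC array was far above every soma array. Adsl, which acts both in the main pathway and in the branch to AMP, was 4.59-fold higher (difference 2.20 ± 0.06). Paics and Atic, the enzymes of the middle and final steps to IMP, were 3.45-fold and 3.42-fold higher, and Pfas was 2.75-fold higher.

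Ppat and Paics are neighbours that are read in opposite directions. Their annotated start sites lie 276 bases apart. By the coordinates each gene is read toward the start site of the other, so the annotated beginnings of both overlap. Both genes were higher in ESC. Their start regions are shown because they face each other, each with 250 bases before the start site and 50 after it, from RefSeq (GRCm38.p6): Paics at chr5:76951052-76951351 on the plus strand and Ppat at chr5:76951529-76951828 on the minus strand. Capitals mark matches, on either strand, to 6 short motifs that were searched, namely GGGCGG as the core of the GC box, CACGTG as an E-box, CCAAT as the CCAAT box, TTCCCGC and likewise TTGGCGC as E2F-type motifs, and ATTTGCAT as the octamer.
Paics: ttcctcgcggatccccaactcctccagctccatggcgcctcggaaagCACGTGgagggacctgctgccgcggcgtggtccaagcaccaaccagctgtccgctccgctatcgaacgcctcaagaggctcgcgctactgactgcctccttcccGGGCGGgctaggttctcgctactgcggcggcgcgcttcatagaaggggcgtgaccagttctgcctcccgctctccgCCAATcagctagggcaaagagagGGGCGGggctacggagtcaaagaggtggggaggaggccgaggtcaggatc
Ppat: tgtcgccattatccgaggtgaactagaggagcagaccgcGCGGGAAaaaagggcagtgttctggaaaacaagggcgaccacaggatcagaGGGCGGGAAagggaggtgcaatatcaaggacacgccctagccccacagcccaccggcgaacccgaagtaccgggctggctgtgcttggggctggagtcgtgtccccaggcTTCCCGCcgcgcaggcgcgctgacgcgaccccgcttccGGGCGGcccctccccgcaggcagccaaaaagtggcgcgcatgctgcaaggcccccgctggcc
Paics holds the GC box core, the E-box and the CCAAT box, and Ppat holds the GC box core and TTCCCGC, where overlapping matches share 4 bases. A match is a description of the letters, not a binding site.

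After IMP the purine route divides toward GMP and AMP. Impdh2, an IMP dehydrogenase of the GMP branch, stood at 4.32, 4.25 and 4.45 in soma and 5.74, 5.64 and 5.69 in ESC, a difference of 1.35 ± 0.07 (2.55-fold, adjusted p 6.35e-06), and quantile normalization gave 0.71. Its isozyme gene Impdh1 stood at 0.99, 1.13 and 1.05 in soma and 1.27, 1.23 and 1.36 in ESC, a difference of 0.23 ± 0.06 (1.18-fold, adjusted p 0.0121). Impdh1 has the smallest difference among the purine genes, and with spike-in scaling it was 0.01, with no call. It was also not called with quantile normalization (0.14, adjusted p 0.0717) or with slide as a fixed block (0.24, adjusted p 0.0635). Gmps, which makes GMP, was 2.49-fold higher (1.31 ± 0.07), but its probes disagreed: the other kept probes gave -0.60 and -1.05, and the mean of its probes was -0.11.

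The AMP branch had a strong and a weak member. Adss, the adenylosuccinate synthase found in most tissues, stood at 0.35, 0.41 and 0.35 in soma and 1.74, 1.61 and 1.63 in ESC, a difference of 1.29 ± 0.06 (2.45-fold, adjusted p 3.8e-06). Adssl1, the form known from muscle, stood at -1.31, -1.36 and -1.27 in soma and -0.95, -0.60 and -0.63 in ESC, a difference of 0.59 ± 0.11 (1.51-fold, adjusted p 0.0023), and spike-in scaling gave 0.37. ESC 1 was the lowest ESC array for Adssl1, and no soma array reached it.

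**Figure D2:**
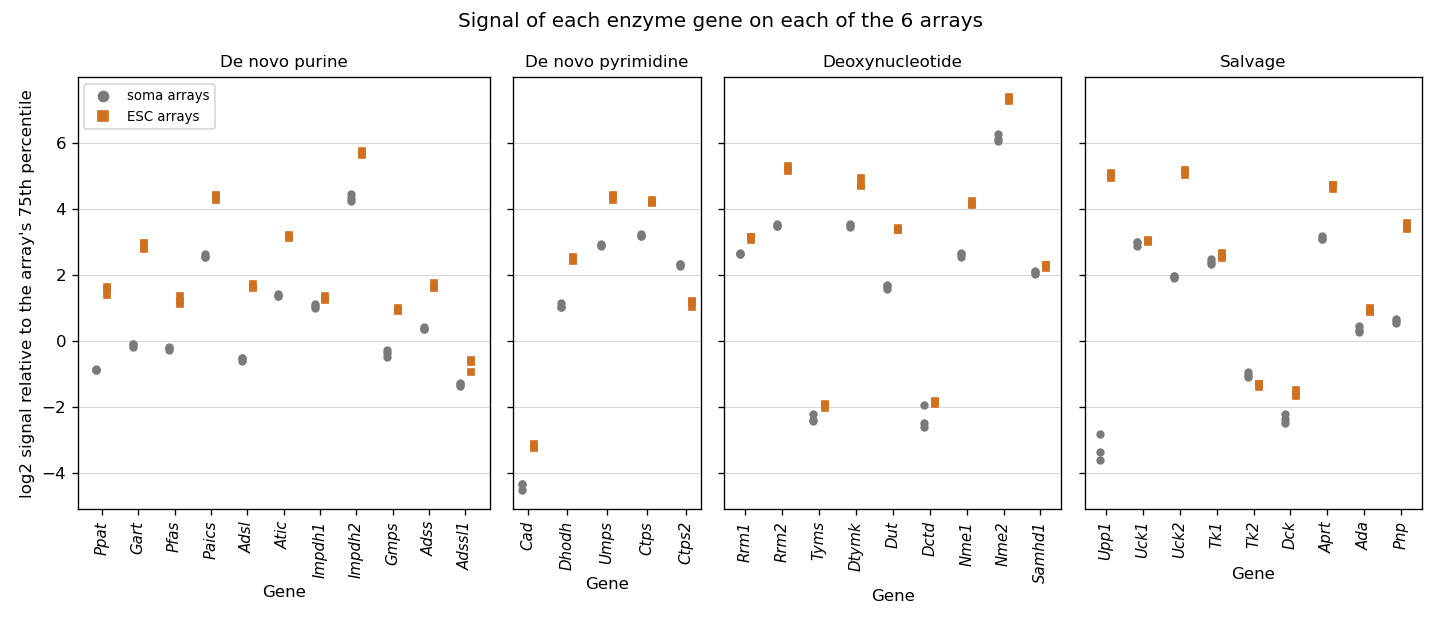
Log2 signal relative to the array's 75th percentile for each enzyme gene tested, with soma arrays as circles and ESC arrays as squares, in 4 panels by pathway. The groups separate for every gene drawn except Uck1, and levels of different genes rest on different probes and cannot be compared.

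In de novo pyrimidine synthesis 4 of 5 genes were higher in ESC and 1 was lower, with a median difference of 1.21. Of all genes, 46.6% were higher and 38.3% lower, and the group holds too few genes to be read against these shares. Umps, the enzyme that completes UMP, stood at 2.92, 2.89 and 2.88 in soma and 4.40, 4.27 and 4.41 in ESC, a difference of 1.46 ± 0.06 (2.76-fold, adjusted p 2.37e-06). Another probe of Umps gave -0.08, and the mean of its probes gave 0.69. Dhodh, the mitochondrial step of the pathway, stood at 1.03, 1.15 and 1.04 in soma and 2.55, 2.41 and 2.48 in ESC, a difference of 1.41 ± 0.06 (2.65-fold, adjusted p 4.43e-06). Cad, which carries the opening reactions, was 2.31-fold higher (1.21 ± 0.07), with soma at -4.51 to -4.34 and ESC at -3.24 to -3.13, and normexp background correction gave 0.78. Its probe is a dim one, since probes called well above background reached down to -5.56 to -4.93 on the 6 arrays.

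The CTP synthases, which turn UTP into CTP, went in opposite directions. Ctps stood at 3.19, 3.18 and 3.25 in soma and 4.27, 4.16 and 4.21 in ESC, a difference of 1.01 ± 0.05 (2.01-fold, adjusted p 7.18e-06), and quantile normalization gave 0.54. Ctps2, its X-linked isozyme gene, stood at 2.32, 2.33 and 2.28 in soma and 1.03, 1.21 and 1.18 in ESC, a difference of -1.17 ± 0.06 (2.25-fold lower, adjusted p 9.73e-06). Ctps2 was the only enzyme gene at least 2-fold lower in ESC, and all its soma arrays were above all its ESC arrays. At least 2-fold lower values were found for 23.2% of all genes. A second probe of Ctps2 gave -2.88, in the same direction, and the mean of both gave -2.02.

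The median difference of the 9 tested genes of deoxynucleotide supply was 1.17, or 0.65 with quantile normalization. At least 2-fold higher in ESC were 5 of them, beside 24.2% of all genes. All 9 were higher in ESC, beside 46.6% of all genes. The count was 6 with spike-in scaling and when soma 3 alone was set against the ESC arrays of its own slide. Dut, which removes dUTP, stood at 1.57, 1.66 and 1.70 in soma and 3.43, 3.35 and 3.37 in ESC, a difference of 1.74 ± 0.06 (3.33-fold, adjusted p 1.26e-06). Rrm2, the small subunit of ribonucleotide reductase made in dividing cells, stood at 3.49, 3.55 and 3.47 in soma and 5.29, 5.16 and 5.22 in ESC, a difference of 1.72 ± 0.06 (3.30-fold, adjusted p 1.29e-06). Rrm1, the large subunit, differed less: it was 1.39-fold higher (0.48 ± 0.05, adjusted p 0.00014), with soma at 2.64 to 2.66 and ESC at 3.07 to 3.15. Quantile normalization gave 0.13 and spike-in scaling 0.25 for Rrm1, both still called. Rrm2b, the small subunit known from the DNA damage response, had 2 probes. On the brighter one soma stood at -4.98, -4.36 and -4.02 and ESC at -5.32, -5.39 and -5.50, well above background on 2 of 3 soma arrays and on no ESC array. The other was well above background on none, so the Rrm2b difference was not tested.

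The thymidylate steps spread widely. Dtymk, the kinase that acts on dTMP, was 2.44-fold higher (1.28 ± 0.08), with 0.76 under quantile normalization, and the probe of another of its transcripts gave 2.29. Tyms, which makes dTMP from dUMP, was 1.30-fold higher (0.38 ± 0.07, adjusted p 0.00375), with soma at -2.42 to -2.21 and ESC at -2.04 to -1.91. Scaling to spike-in RNA gave 0.15 for Tyms, with no call, and against soma 3 alone its difference was 0.25. Dctd, the deaminase that makes dUMP from dCMP, stood at -2.49, -2.61 and -1.96 in soma and -1.91, -1.86 and -1.81 in ESC, a difference of 0.49 ± 0.17 (1.40-fold, adjusted p 0.0388). Soma 3 of Dctd lay near the ESC arrays, and against soma 3 alone the difference was 0.09 (adjusted p 0.369). Without soma 3 it was 0.69 (adjusted p 0.000389), and without any other 1 array it was 0.36 to 0.51 and did not pass.

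The nucleoside diphosphate kinases, which add the last phosphate to most nucleotides, were both higher. Nme1 stood at 2.64, 2.65 and 2.53 in soma and 4.24, 4.13 and 4.16 in ESC, a difference of 1.57 ± 0.06 (2.97-fold, adjusted p 2.1e-06). Nme2 stood at 6.13, 6.06 and 6.28 in soma and 7.40, 7.26 and 7.32 in ESC, a difference of 1.17 ± 0.08 (2.25-fold, adjusted p 1.93e-05), and quantile normalization gave 0.52. These genes are close copies of each other, so a probe may read both and their separate values are uncertain. Samhd1, which breaks down deoxynucleoside triphosphates, stood at 2.09, 2.04 and 2.10 in soma and 2.30, 2.21 and 2.31 in ESC, a difference of 0.20 ± 0.05 (1.15-fold, adjusted p 0.0134). The direction of Samhd1 flipped to -0.06 with quantile normalization and to -0.03 with spike-in scaling. With slide as a fixed block Samhd1 was at 0.17 and not called (adjusted p 0.0964). Its other probe stood at -1.37, -1.31 and -1.25 in soma and 0.35, 0.31 and 0.33 in ESC, a difference of 1.64, and the mean of both probes gave 0.92.

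Genes of dividing cells moved the same way. Of 26 such genes, 25 were higher in ESC and 13 at least 2-fold, beside 46.6% and 24.2% of all genes. Their median difference was 1.01. Pcna, the DNA polymerase clamp, was higher by 1.24 ± 0.07, while Mki67, a marker of cycling cells, was lower by -0.35 ± 0.04 (adjusted p 0.000411). The part of cell division in the deoxynucleotide result was not tested.

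Salvage enzymes held the widest range, from -0.33 to 8.28. Among 9 genes the stem cells had 7 higher (4 by 2-fold or more) and 1 lower, and 1 did not pass. The median difference was 0.76. Of all genes, 46.6% were higher (24.2% by 2-fold or more) and 38.3% lower. The difference between these 4 pathways' medians was not tested, nor were the pathways' counts against these shares. Upp1, uridine phosphorylase, which splits uridine into uracil and ribose phosphate, stood at -3.60, -3.37 and -2.82 in soma and 5.09, 4.94 and 5.01 in ESC. The difference was 8.28 ± 0.20 (309.8-fold, adjusted p 5.4e-07). Uck2, a uridine and cytidine kinase, stood at 1.96, 1.96 and 1.90 in soma and 5.17, 5.03 and 5.12 in ESC, a difference of 3.16 ± 0.06 (8.95-fold, adjusted p 2.62e-07). Its isozyme gene Uck1 stood at 2.99, 2.98 and 2.87 in soma and 2.98, 3.02 and 3.06 in ESC, a difference of 0.08 ± 0.06 (adjusted p 0.253). Uck1 was the only enzyme whose groups overlapped, and its sign turned with the scaling: -0.30 with quantile normalization (adjusted p 0.00589), -0.15 with spike-in scaling and 0.27 with array-median scaling (adjusted p 0.012).

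The start regions of these uridine genes are shown because Upp1 and Uck2 had the largest differences among salvage genes and Uck1 the smallest. They are RefSeq windows on GRCm38.p6 of the same 300 bases and with the same capitals: Upp1 at chr11:9117758-9118057 on the plus strand, the first of its 3 windows, Uck2 at chr1:167285078-167285377 on the minus strand, and Uck1 at chr2:32260056-32260355 on the minus strand.
Upp1: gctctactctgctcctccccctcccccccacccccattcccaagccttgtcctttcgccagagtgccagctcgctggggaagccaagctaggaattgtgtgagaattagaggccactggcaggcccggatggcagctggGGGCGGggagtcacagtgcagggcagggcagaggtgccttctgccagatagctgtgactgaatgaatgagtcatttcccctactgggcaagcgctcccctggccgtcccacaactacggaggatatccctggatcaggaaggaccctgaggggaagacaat
Uck2: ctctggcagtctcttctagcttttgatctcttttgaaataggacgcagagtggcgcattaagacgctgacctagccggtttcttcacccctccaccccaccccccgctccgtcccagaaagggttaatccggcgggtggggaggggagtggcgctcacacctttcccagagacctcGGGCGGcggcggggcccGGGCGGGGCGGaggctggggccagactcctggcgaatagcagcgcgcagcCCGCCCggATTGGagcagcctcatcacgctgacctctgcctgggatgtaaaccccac
Uck1: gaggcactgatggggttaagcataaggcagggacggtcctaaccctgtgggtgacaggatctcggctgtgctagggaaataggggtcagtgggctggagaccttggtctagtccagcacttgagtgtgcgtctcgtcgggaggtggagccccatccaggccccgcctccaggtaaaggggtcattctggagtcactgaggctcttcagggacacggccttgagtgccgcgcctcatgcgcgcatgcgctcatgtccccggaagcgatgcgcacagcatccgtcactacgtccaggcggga
The Uck2 window holds GGGCGG and CCAAT, the Upp1 window holds GGGCGG, and none of the 6 motifs is in the Uck1 window.

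The Upp1 fold depends on the probe and on the soma arrays. Another probe stood at -6.98, -7.55 and -7.21 in soma, with no array well above background, and at -3.67, -3.40 and -3.57 in ESC. The mean of both probes gave a difference of 5.99, and normexp background correction gave 7.49. Among soma arrays Upp1 spanned 0.78, and its values ran in the order soma 1, soma 2, soma 3. Germ cell markers other than Nanos3 ran in the same order: Ddx4 stood at -1.04, -0.38 and 0.08 and Dazl at -1.23, -0.68 and -0.22 on soma 1 to 3. Nanos3 stood at 0.01, -0.08 and 0.44. The median deviation of 7 germ cell markers from their soma mean was -0.60, 0.01 and 0.53, and that of the 8 pluripotency markers was -0.32, 0.12 and 0.27, beside -0.01, 0.01 and -0.00 for the enzymes. Among the pluripotency markers, Esrrb, Klf4 and Tdgf1 did not run in that order. The part of germ cell RNA in the soma level of Upp1 was not tested.

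**Figure D3:**
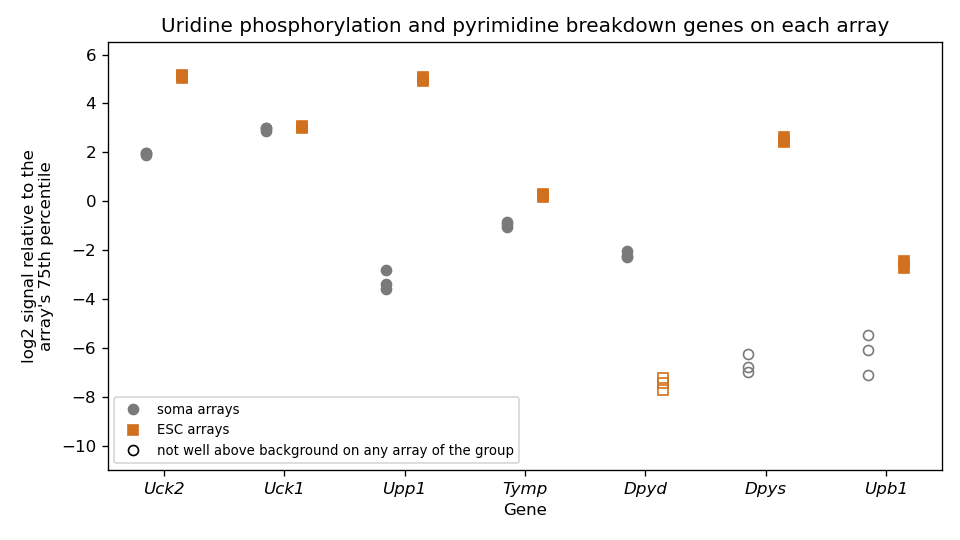
Log2 signal relative to the array's 75th percentile for uridine and pyrimidine breakdown genes, with soma arrays as circles, ESC arrays as squares and open marks where no array of the group was well above background. Uck2, Upp1, Tymp, Dpys and Upb1 are higher on ESC arrays, Dpyd on soma arrays, and Uck1 overlaps.

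Pnp, Aprt and Ada, the purine salvage enzymes of this set, were higher in ESC. Pnp, purine nucleoside phosphorylase, stood at 0.66, 0.61 and 0.54 in soma and 3.58, 3.39 and 3.45 in ESC, a difference of 2.87 ± 0.07 (7.32-fold, adjusted p 5.17e-07). Aprt, which turns adenine into AMP, was 2.97-fold higher (1.57 ± 0.06), and Ada, which turns adenosine into inosine, was 1.48-fold higher (0.56 ± 0.07), or 0.34 with spike-in scaling. Hypoxanthine and guanine are reused by Hprt, counted here among the wider genes, which stood at 1.56, 1.65 and 1.47 in soma and 4.70, 4.58 and 4.66 in ESC, a difference of 3.08 ± 0.07 (8.47-fold). Of other purine salvage genes in the wider list, Adk, for adenosine kinase, was 2.96-fold higher (1.57 ± 0.06, adjusted p 1.68e-06). Dguok, the mitochondrial deoxyguanosine kinase, differed by -0.00 (adjusted p 0.999), and Pnp2, a close relative of Pnp, by -1.26 (adjusted p 0.102). Neither of these 2 passed, and Pnp2 was well above background on only 1 of 3 ESC arrays.

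The deoxynucleoside kinases had small differences. Dck, which phosphorylates deoxycytidine, was 1.70-fold higher (0.76 ± 0.09, adjusted p 0.000323), with soma at -2.50 to -2.23 and ESC at -1.69 to -1.50. Tk1, the cytosolic thymidine kinase, stood at 2.33, 2.48 and 2.38 in soma and 2.67, 2.51 and 2.57 in ESC, a difference of 0.19 ± 0.07 (1.14-fold, adjusted p 0.0378), and it turned to -0.10 with quantile normalization and -0.03 with spike-in scaling. Besides these 2 turned values, the Tk1 call was lost in 8 of 20 alternatives. Among these were leaving out soma 1, soma 3, ESC 1 or ESC 3, where the difference was 0.15 to 0.20. The replicate number as a block (adjusted p 0.1), no filter on dim probes and slide as a fixed block were also among them. Tk2, the mitochondrial thymidine kinase, was the other enzyme lower in ESC: it stood at -1.08, -0.95 and -1.03 in soma and -1.40, -1.31 and -1.32 in ESC, a difference of -0.33 ± 0.06 (1.25-fold lower, adjusted p 0.00242). With array-median scaling Tk2 was at -0.13 and not called, and with spike-in scaling it was at -0.55.

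Several enzymes come as isozymes, and the log2 ratio of both genes within an array does not move with a shift of the whole array. It was compared for 6 pairs by a two-sided exact permutation test, in which 3 arrays against 3 cannot give a p below 0.1. All 6 pairs reached that p, and the adjusted p was 0.1 for each. The ratio of Uck2 to Uck1 differed most: it stood at -1.03, -1.02 and -0.97 in soma and 2.19, 2.003 and 2.06 in ESC, a change of 3.09 ± 0.06 (8.50-fold). The ratio of Ctps to Ctps2 was 0.86, 0.85 and 0.97 in soma and 3.24, 2.95 and 3.02 in ESC, a change of 2.18 ± 0.09 (4.53-fold). The change was 1.12 ± 0.09 for Impdh2 over Impdh1 and 0.70 ± 0.16 for Adss over Adssl1. It was 0.51 ± 0.07 for Tk1 over Tk2 and 0.40 ± 0.10 for Nme1 over Nme2. In every pair no soma array overlapped an ESC array. Quantile normalization, which does move the ratio, lowered Impdh2 over Impdh1 to 0.57 and Tk1 over Tk2 to 0.11. For Nme1 over Nme2 the change rests on the probes chosen, since the other kept probe of Nme1 gave 1.05 and that of Nme2 gave 0.82, beside 1.57 and 1.17. The ratios compare the change of the genes of a pair and say nothing about which protein is more abundant.

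**Figure D4:**
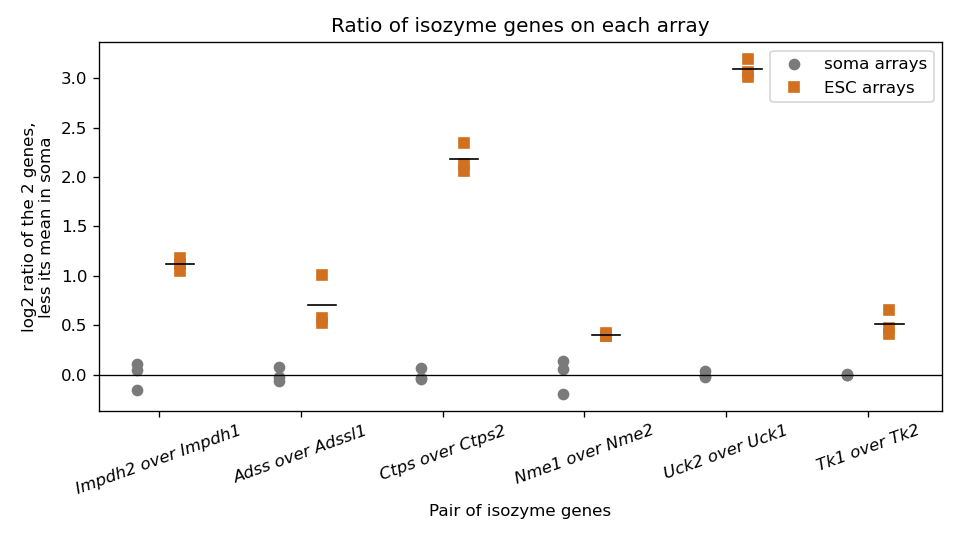
Log2 ratio of the genes of each isozyme pair on each array, less its mean over the soma arrays, with soma arrays as circles and ESC arrays as squares. The ESC arrays lie above the soma arrays in all 6 pairs, farthest for Uck2 over Uck1 (3.09) and Ctps over Ctps2 (2.18).

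Around these enzymes, 59 further genes of nucleotide metabolism were listed and 49 were tested. Of these, 33 were higher in ESC and 10 lower, 22 and 8 of them at least 2-fold, with a median difference of 0.57. Among all genes 46.6% were higher and 38.3% lower, 24.2% and 23.2% at least 2-fold, and the smaller lists here hold too few genes to be read against these shares. Of the 49, 42 were well above background on all 6 arrays, and the others entered through 1 group alone. With the filter that asks for all 6 arrays, 30 were higher and 7 lower, beside 7990 and 5674 of 16082 genes in all. The median difference of these 42 was 0.65. Among the 4 genes of PRPP synthesis 3 were higher. Prps1, a PRPP synthetase gene, stood at 1.81, 1.67 and 1.57 in soma and 4.83, 4.59 and 4.77 in ESC, a difference of 3.05 ± 0.09 (8.28-fold, adjusted p 1.04e-06). Of 6 other salvage genes 3 were higher and 1 lower, the latter being Uckl1, a relative of the uridine kinases, at -0.39 ± 0.09 (adjusted p 0.00695), with no call under array-median scaling or within the shared slide. Of 14 nucleotide kinase genes 11 were higher and 3 lower. The adenylate kinase gene Ak1 stood at 0.28, 0.18 and 0.13 in soma and 3.74, 3.68 and 3.71 in ESC, a difference of 3.51 ± 0.06 (11.4-fold, adjusted p 2.1e-07). Its relative Ak5 was lower by -3.36 ± 0.56, with ESC arrays spread over -6.19, -5.35 and -3.90, of which 2 of 3 were well above background. With normexp correction its difference was -1.86. Ak5 passed the filter on dim probes through the soma arrays alone, so its adjusted p (0.00166) lends the direction no support.

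Folate enzymes supply carbon units to purines and thymidylate. Mthfd2, the mitochondrial form, stood at -1.04, -1.09 and -1.07 in soma and 1.80, 1.74 and 1.68 in ESC, a difference of 2.81 ± 0.05 (7.01-fold, adjusted p 2.91e-07), and no soma array reached an ESC array. Of 5 nucleoside transporter genes tested 4 were higher, the largest being Slc28a1, a sodium-driven carrier, at -0.96, -1.88 and -1.62 in soma and 1.86, 1.54 and 1.61 in ESC (3.16 ± 0.24, 8.93-fold).

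Of 16 breakdown genes tested 9 were higher and 5 lower, beside 46.6% and 38.3% of all genes. The list holds too few genes to be read against these shares. Uracil is degraded in sequence by the enzymes of Dpyd, Dpys and Upb1. Dpyd stood at -2.28, -2.22 and -2.02 in soma and -7.25, -7.71 and -7.44 in ESC, with no array well above background, and was at least 7.78-fold lower (adjusted p 6.24e-07). Dpys stood at -6.77, -6.98 and -6.27 in soma, not well above background on any array, and 2.64, 2.41 and 2.46 in ESC, at least 219-fold higher (adjusted p 3.55e-07). So the gene of the opening step was lower in ESC and that of the next step higher. Upb1, chosen after its values were seen, was at least 6.38-fold higher in ESC (adjusted p 0.000227) and not well above background on any soma array. Tymp, thymidine phosphorylase, also chosen after its values were seen, was 2.27-fold higher (1.18 ± 0.07). Dpyd passed the filter on dim probes through the soma arrays alone, and Dpys and Upb1 through the ESC arrays alone. The filter thus favoured these directions, and the adjusted p-values of these genes lend them no support. For the bounds given, the dim group was set on each array at the dimmest signal of any probe called well above background, or at its own signal where that was higher. These bounds hold for the processed signal alone: with normexp correction the log2 differences were smaller than the bounds, at 6.62 for Dpys, -2.16 for Dpyd and 1.70 for Upb1.

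**Figure D5:**
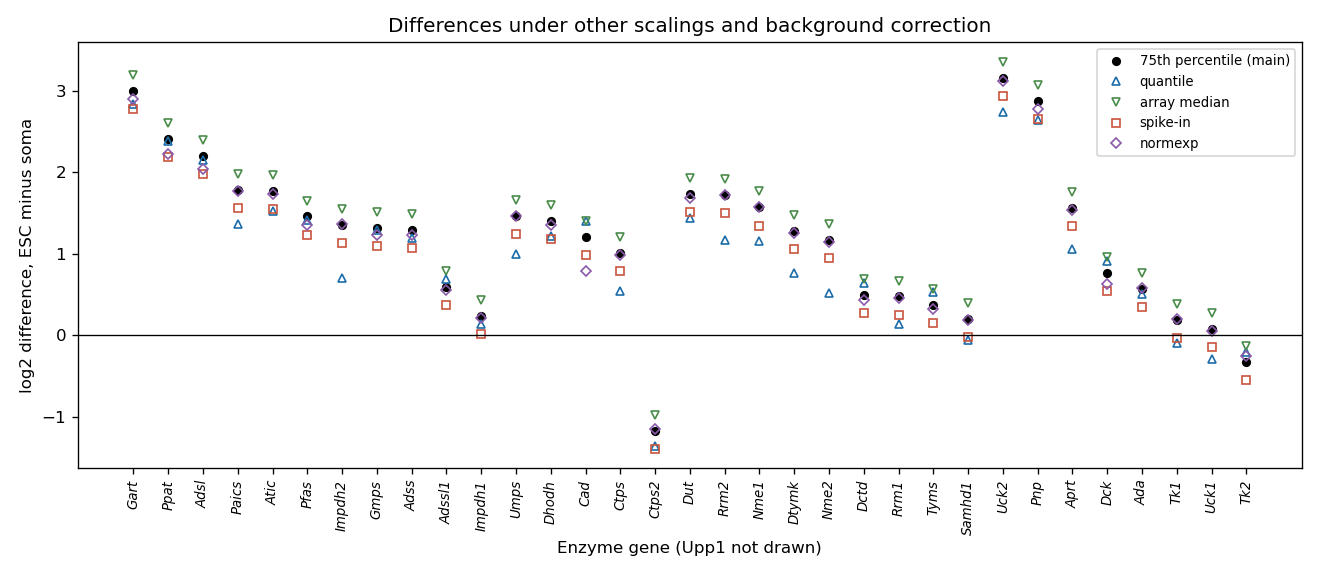
Log2 difference, ESC minus soma, of 33 enzyme genes under the main scaling (filled circles), quantile normalization, scaling to the array median, scaling to spike-in RNA and normexp correction, with Upp1 left out for its size. Most genes keep their side of 0 under all 5 settings, while Samhd1, Tk1 and Uck1 lie below 0 with quantile normalization and spike-in scaling.

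Start regions were available from RefSeq (GRCm38.p6) for 32 of the 35 enzymes, in 43 windows of 300 bases. Pfas, Dhodh and Rrm2b had none. GGGCGG, the core of the GC box, was in 31 of 43 windows (72.1%), beside 59.2% of the 14329 windows of tested genes and 35.7% of all 32851 windows. CACGTG, the E-box bound by MYC and its relatives, was in 7 windows (16.3%), beside 9.56% and 7.15%, and the genes were Atic, Dtymk, Impdh2, Nme1, Paics and Tyms. CCAAT was in 30.2%, beside 37.5% and 37.4%. The E2F-type motif TTCCCGC was in 2 windows, of Ppat and Rrm1 (4.65%, beside 7.76% and 4.60%), and TTGGCGC in 3, of Adss, Dtymk and Impdh2 (6.98%, beside 3.92% and 2.45%). The octamer ATTTGCAT was in none of the 43, beside 1.35% and 1.74%. Mean GC content was 60.8% in the enzymes' windows, 60.1% in those of tested genes and 53.8% in all. These shares rest on few windows, some of which belong to the same gene, and were not tested.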

How the data were processed

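Total RNA of 6 samples was labelled with Cy3 and hybridised to Agilent mouse arrays with spike-in RNA added, per the labels' protocols. The scans were read by Feature Extraction 10.7.3.1, per the file headers, and its processed signal is an intensity with background subtracted and the array's trend removed, but no scaling across arrays. The deposited series matrix gives log2 values with unstated scale, centring and direction. At least 99.97% of them lay within 0.01 of the values used here, centred on the probe's median over all 6 arrays, which settles all these points, and the matrix was used as an alternative. Its columns had medians of 0.0549, -0.251 and -0.0654 (soma) and 0.161, -0.0878 and 0.0634 (ESC).

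Control spots (1377) and values marked as outliers (15) were left out, no gene spot was saturated, and each array's 75th percentile was subtracted from the log2 processed signal. A probe was kept when the scanner software marked it well above background on all arrays of at least 1 group, and the brightest kept probe stood for a gene. Symbols came from matching transcript identifiers to a RefSeq gene table, which named 66.1% of 39429 gene probes. ESC and soma were compared in a two-sided limma fit (version 3.58.1, R 4.3.3) with Benjamini-Hochberg adjustment over 19670 genes. The scripts were tested on simulated data.

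The enzymes and lists were chosen with earlier results of these data known. The rule for array values in sentences takes, in each pathway group, the 2 largest differences in each direction, every enzyme lower in ESC or not called, and both genes of each isozyme pair, plus the largest difference in each direction from each wider list, of which 1 gene is not reported here. Rrm2 and Rrm2b form a seventh pair that could not be compared. The alternatives were quantile normalization, scaling to the array median or to 7 spike-in probes, normexp (offset 50, on the median signal), no filter or a stricter one on dim probes, averaging a gene's probes, the deposited matrix, limma's trend and robust options, blocks for slide, scan or replicate number, the slide shared by both groups, and leaving out each array. Precision is limited by the number of arrays.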

Additional observations from a re-analysis of the deposited data

How the results depend on the processing

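Of the 34 enzymes tested, 25 kept their direction and their side of the threshold in all 20 alternatives, 9 had another call in at least 1 and 4 were reversed in at least 1. Reversed values were -0.11 for Gmps with the mean of its probes, -0.0575 for Samhd1, -0.30 for Uck1 and -0.10 for Tk1 with quantile normalization, and -0.0266 for Samhd1, -0.15 for Uck1 and -0.0333 for Tk1 with spike-in scaling. The median of all genes moved by -0.12 with quantile normalization, by 0.196 with array-median scaling and by -0.223 with spike-in scaling, and the cause of the reversals was not tested. Enzymes higher numbered 25 to 32 over the alternatives, with the lowest count where soma 3 alone faced the ESC arrays, and 29 to 30 with 1 array left out. Enzymes lower numbered 1 with array-median scaling, where the salvage group had 0, while salvage had 2 with quantile normalization, and the deoxynucleotide group had 1 (Rrm2b) with no filter on dim probes. The medians ran from 1.03 to 1.50 over all enzymes. With the replicate number as a block 30 enzymes were higher and 2 lower, Tk1 being the only enzyme to lose its call, and 16476 of all genes were called. In their deviations from the group means, same-numbered samples correlated at -0.05, 0.07 and 0.03, and differently numbered ones at -0.08 to 0.05. With 3 arrays per group this cannot settle whether the numbers pair the samples. Slide as a fixed block and the shared slide alone give the same differences and assume that soma 3 varies like the other arrays. The number of arrays and, for Cad and Rrm2b, signal near background limit the precision.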
